A study of Mus musculus with 12 samples.

Results

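miR-221 and miR-222 are 2 microRNAs (miRNAs, short RNAs that hold messenger RNAs back) encoded next to each other on the mouse X chromosome. They were chosen by name, as the array features called mmu-miR-221 and mmu-miR-222, and are 2 of the 577 miRNAs that the array reads. Both were measured in 4 mouse breast cancer cell lines on 12 one-colour Agilent miRNA arrays, on which the brightness of a spot reads the amount of labelled miRNA bound to it. The lines were 4T1, which the labels call metastatic, and 4TO7, 168FARN and 67NR, which the labels call non-metastatic, with 3 arrays (repeats) of each. All 4 were labelled as wild-type, female and Balb/C, with a spontaneous mouse breast cancer as their source, and no line was given a treatment in the labels. Nothing in the labels tells separate cultures from repeated runs of 1 RNA, so each p-value below rests on the spread between repeats and that spread may be technical. Each group is 1 cell line, and with 1 metastatic line a difference between 4T1 and another line cannot be told apart from a difference of metastatic class. The series' design text sets the metastatic line against the non-metastatic ones, and the comparisons below follow it.

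The mature forms of both miRNAs carry the same seed, the stretch near the 5′ end that pairs with target messenger RNAs, and so they share most of their targets. Well-known targets are Cdkn1b and Cdkn1c, which encode the cell-cycle brakes p27 and p57, the receptor tyrosine kinase Kit and, in human breast cancer cells, the oestrogen receptor alpha. In human breast tumours the pair is known as higher in the basal-like, receptor-negative class than in the luminal class. The 4 lines are known as derivatives of 1 mouse mammary tumour that differ in how far their cells spread, 4T1 forming metastases at distant organs and 67NR staying at the primary site.

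The mature sequences are shown first because the shared seed is what makes the pair a family, and the bases after it are what the array's probes tell apart. They are from RefSeq on the build GRCm38.p6, minus strand, written 5′ to 3′, with the seed (bases 2 to 8) in capitals. miR-221-3p lies at chrX:19146307-19146329 and miR-222-3p at chrX:19146901-19146923.
mmu-miR-221-3p: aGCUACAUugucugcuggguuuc
mmu-miR-222-3p: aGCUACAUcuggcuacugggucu
Both are 23 bases long and have the same base at 11 of the 23 positions, among them the first 8. Of the 1738 mature mouse miRNAs in the RefSeq table, 3 hold this seed. The third is mmu-miR-1928 (chr1:74206562-74206578, minus strand), for which the array names no feature.
mmu-miR-1928: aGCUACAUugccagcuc
The hairpins from which both are cut are printed with the mature 3′ arm in capitals, since the array measured that arm of each. No feature of the array carries the name of either passenger strand (0 features).
Mir221: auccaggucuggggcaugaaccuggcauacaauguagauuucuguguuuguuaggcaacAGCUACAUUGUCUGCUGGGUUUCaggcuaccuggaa
Mir222: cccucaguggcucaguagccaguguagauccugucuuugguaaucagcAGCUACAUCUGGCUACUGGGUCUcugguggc
The hairpins span chrX:19146294-19146388 for Mir221 (95 bases) and chrX:19146893-19146971 for Mir222 (79 bases), on the minus strand, with 504 bases between them. RefSeq annotates each as a miRNA gene, and no other annotated gene overlaps them (0 genes). Their neighbours on the chromosome are the pseudogene Gm5383 on the side of Mir221 and the long noncoding RNA Gm14636 on the side of Mir222.

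The array reads each miRNA with 2 probes of 10 spots each. On the array's own build, mm9, the miR-221 probes target chrX:18723433-18723452 (20 bases, the brighter probe) and chrX:18723433-18723451 (19 bases, the dimmer). The miR-222 probes target chrX:18724029-18724042 (14 bases, the brighter) and chrX:18724029-18724041 (13 bases, the dimmer). All 480 spots of the pair over the 12 arrays were well above background and none was saturated (0), so both miRNAs were read in every line. The scanner software had marked 27 of these spots as uneven or as outliers, and they were left out.

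Before any scaling the pair was brightest in 67NR and dimmest in 4TO7. The brighter miR-221 probe gave processed signals of 1023, 1100 and 898 scanner units in 4T1, 437, 472 and 412 in 4TO7, 1332, 935 and 814 in 168FARN, and 2231, 2588 and 2028 in 67NR. The 3 arrays of 67NR lay above the other 9 and the 3 of 4TO7 below the other 9, while 4T1 and 168FARN overlapped. The brighter miR-222 probe gave 273, 279 and 224 units in 4T1, 87.1, 95.3 and 94.9 in 4TO7, 252, 213 and 189 in 168FARN, and 466, 453 and 395 in 67NR. The order was the same at both ends, with 67NR above and 4TO7 below every other array. Levels of the 2 miRNAs are not set against each other, because brightness depends on the probe.

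Arrays differ in overall brightness, so the signals of an array were scaled before log2 was taken. The divisor was the 75th percentile of the 170 probes read well above background throughout the 12 arrays. It was 889 to 1136 units on the 4T1 arrays, 600 to 671 on 4TO7, 791 to 1213 on 168FARN and 358 to 460 on 67NR, so scaling raised 67NR relative to the other lines. The scaled level of miR-221 was -0.10, -0.046 and 0.016 in 4T1 (mean -0.043 ± 0.057 SD, n = 3), and -0.46, -0.38 and -0.70 in 4TO7 (mean -0.51 ± 0.17, n = 3). It was 0.13, 0.0090 and 0.042 in 168FARN (mean 0.062 ± 0.065, n = 3), and 2.28, 2.53 and 2.50 in 67NR (mean 2.44 ± 0.14, n = 3). From high to low the order was thus 67NR, then 168FARN and 4T1 with partly overlapping arrays, then 4TO7. The scaled level of miR-222 was -2.01, -2.03 and -1.99 in 4T1 (mean -2.01 ± 0.018 SD, n = 3), and -2.78, -2.69 and -2.82 in 4TO7 (mean -2.76 ± 0.069, n = 3). It was -2.27, -2.13 and -2.07 in 168FARN (mean -2.15 ± 0.10, n = 3), and 0.019, 0.018 and 0.14 in 67NR (mean 0.059 ± 0.071, n = 3). Its order was 67NR, 4T1, 168FARN and 4TO7, with no overlap between neighbours, although the means of 4T1 and 168FARN lay 0.15 apart.

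**Figure D1:**
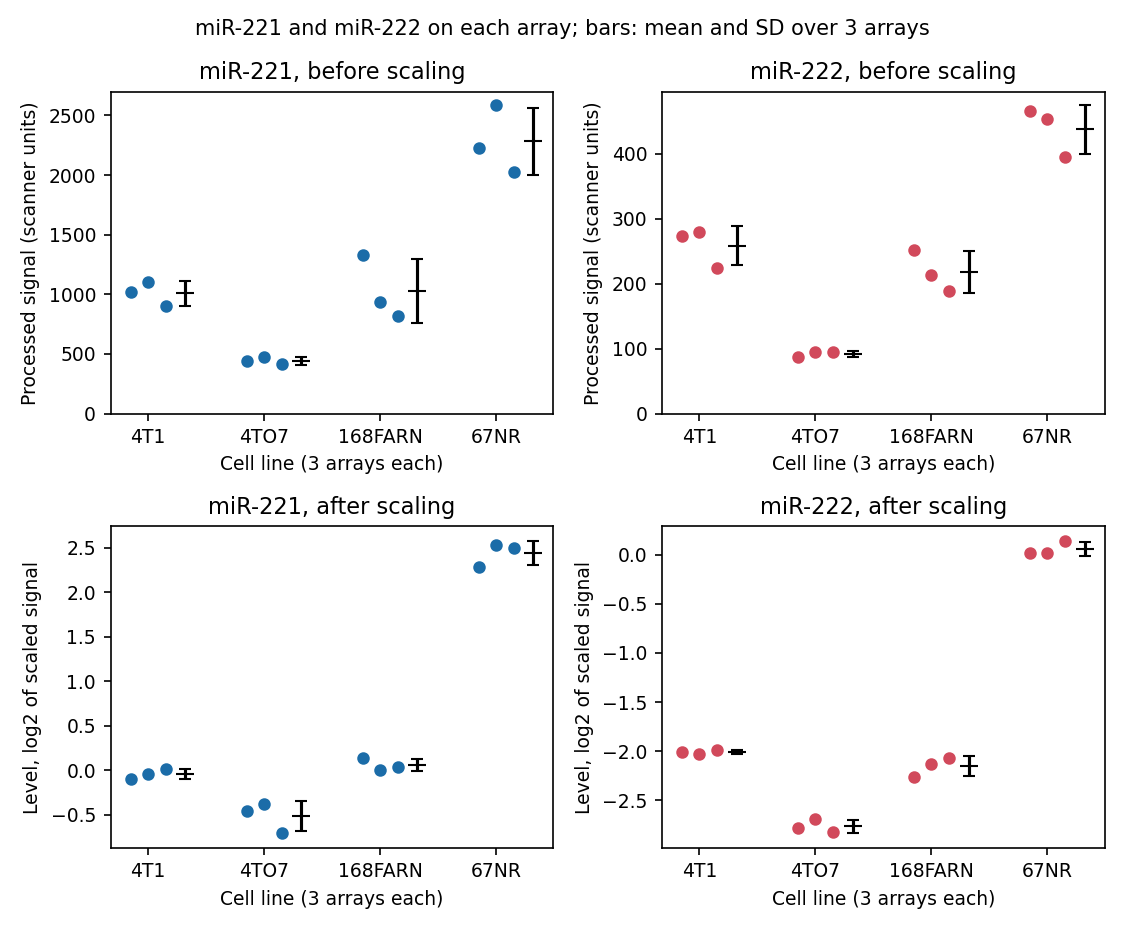
Level of miR-221 (left, blue) and miR-222 (right, red) on each of the 12 arrays, as processed signal in scanner units (top) and as log2 of the scaled signal (bottom). Points are arrays, and the bar beside them is the mean and SD over 3 arrays. In all 4 panels the 67NR arrays lie above and the 4TO7 arrays below the arrays of the 2 other lines.

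The 67NR arrays differed from the others in several measures. They stood apart over the 224 tested miRNAs: their correlation with the other 9 arrays was 0.539 to 0.636, against 0.837 to 0.965 between arrays of 2 of the other lines and 0.993 to 0.9995 within a line. The array's hur_5 control spots averaged 3.93 to 6.36 units on 4T1 arrays, 1.37 to 2.49 on 4TO7, 1.25 to 3.44 on 168FARN and 180 to 207 on 67NR. The number of miRNAs well above background was 166 to 182 on 4T1 arrays, 146 to 158 on 4TO7, 176 to 185 on 168FARN and 141 to 161 on 67NR. All 3 arrays of 67NR lay on slide 1 with the first array of 168FARN, and the other 8 arrays lay on slide 2. Of 7 miRNAs that mark epithelial cells, such as those of the miR-200 family, no line read any on each of its 3 arrays (0 of 7), and 67NR was the line in which at least 1 array read any, leaving 5 of 7 unread. The summed scaled signal of 4 nervous-system markers was 0.114 to 0.122 in 4T1, 0.119 to 0.144 in 4TO7, 0.114 to 0.127 in 168FARN and 0.695 to 0.753 in 67NR, and that of 2 endothelial markers was 0.0447 to 0.0458 in 4T1, 0.0380 to 0.0451 in 4TO7, 0.00220 to 0.00730 in 168FARN and 0.272 to 0.291 in 67NR. Other marker lists were highest in 168FARN. The summed scaled signal of 6 mesenchymal markers was 0.115 to 0.119 in 4T1, 0.102 to 0.107 in 4TO7, 0.585 to 0.672 in 168FARN and 0.141 to 0.146 in 67NR, and 4 of the 6 were read on all 3 arrays of 168FARN, against 1 in each other line. That of 6 haematopoietic markers was 0.0132 to 0.0135 in 4T1, 0.0139 to 0.0273 in 4TO7, 0.0479 to 0.0529 in 168FARN and 0.0246 to 0.0373 in 67NR, with 5 of 6 unread on every 168FARN array. That of 4 muscle markers was 0.00130 to 0.00406 in 4T1, 0.00396 to 0.00753 in 4TO7, 0.0335 to 0.0414 in 168FARN and 0.0127 to 0.0169 in 67NR, with 3 of 4 unread on every 168FARN array. The part of these values in the 67NR and 168FARN results was not tested.

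The pair was lower in 4T1 than in 67NR. miR-221 differed by -2.48 ± 0.088 (log2, SE), 5.58-fold lower in 4T1, with an adjusted p of 1.27e-10 by limma with Benjamini-Hochberg adjustment over the tested miRNAs. miR-222 differed by -2.07 ± 0.056, 4.19-fold lower, with an adjusted p of 1.02e-11 by limma. Among all tested miRNAs 79.5% passed at an adjusted p below 0.05 here (32.1% higher and 47.3% lower in 4T1), so passing the test is common in this comparison. The arrays of the 2 lines did not overlap for either miRNA, as was the case for 81.2% of the tested miRNAs. Larger differences, in either direction, were seen for 55 of the 223 other tested miRNAs in the case of miR-221, and for 72 in the case of miR-222. Since slide 1 held no 4T1 array, this comparison could not be made within a slide. With slide as a term in the fit the differences were -2.37 for miR-221 and -2.23 for miR-222. That term rests on 168FARN, the only line on both slides, with its first array on slide 1 and the others on slide 2. Both miRNAs stayed lower in 4T1 under every scaling tried, with the smallest differences, -1.18 for miR-221 and -0.76 for miR-222, on unscaled values.

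Against 4TO7 the direction was the opposite, and both miRNAs were higher in 4T1. miR-221 was higher by 0.47 ± 0.088 (log2, SE), or 1.39-fold, with an adjusted p of 0.000701 by limma. miR-222 was higher by 0.76 ± 0.056, or 1.69-fold, with an adjusted p of 4.26e-07 by limma. Of the tested miRNAs 60.7% passed in this comparison, 25% as higher and 35.7% as lower in 4T1. No 4TO7 array reached a 4T1 array for either miRNA, and 67.9% of the tested miRNAs had no overlap between these lines. All arrays of both lines were on slide 2, and on that slide alone the differences were the same 0.47 and 0.76. Of the 223 other tested miRNAs 31 had a higher difference than miR-221 and 18 a higher one than miR-222.

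Between 4T1 and 168FARN the pair differed little. miR-221 gave -0.10 ± 0.088 (log2, SE), with a 95% interval of -0.31 to 0.098 and an adjusted p of 0.316 by limma, and its arrays overlapped. miR-222 was 0.15 ± 0.056 higher in 4T1, with a 95% interval of 0.018 to 0.28 and an adjusted p of 0.0343 by limma, and its arrays did not overlap. Of the tested miRNAs 74.1% passed here (34.4% higher and 39.7% lower in 4T1), and 76.8% had arrays without overlap. The call for miR-222 rests on the first 168FARN array, the 1 on slide 1: without it, which is also the comparison on slide 2 alone, the difference was 0.090 (limma adjusted p of 0.146 without it, 0.130 on slide 2). It was lost as well when any 1 of the 4T1 arrays was left out. That of miR-221 on slide 2 alone was -0.068.

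The comparison named in the design text sets 4T1 against the mean of 4TO7, 168FARN and 67NR. By it miR-221 was 1.63-fold lower in 4T1 (-0.70 ± 0.072, log2, SE, limma adjusted p of 2.78e-06) and miR-222 1.31-fold lower (-0.39 ± 0.046, limma adjusted p of 9.60e-06). Of the tested miRNAs 87.5% passed this comparison, 28.1% as higher and 59.4% as lower in 4T1, and the median difference over all 224 was -0.34. The 4T1 arrays of both miRNAs lay inside the range of the other 9 arrays, and 17.4% of the tested miRNAs had no overlap. The direction rests on 67NR: without its 3 arrays, 4T1 was 0.18 higher than the mean of 4TO7 and 168FARN for miR-221 (limma adjusted p of 0.0346) and 0.45 higher for miR-222 (limma adjusted p of 1.91e-05). It rests on the scaling too, since without scaling the differences were 0.0040 for miR-221 and 0.32 for miR-222, and dividing by a percentile taken over all probes gave 0.021 for miR-222.

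**Figure D2:**
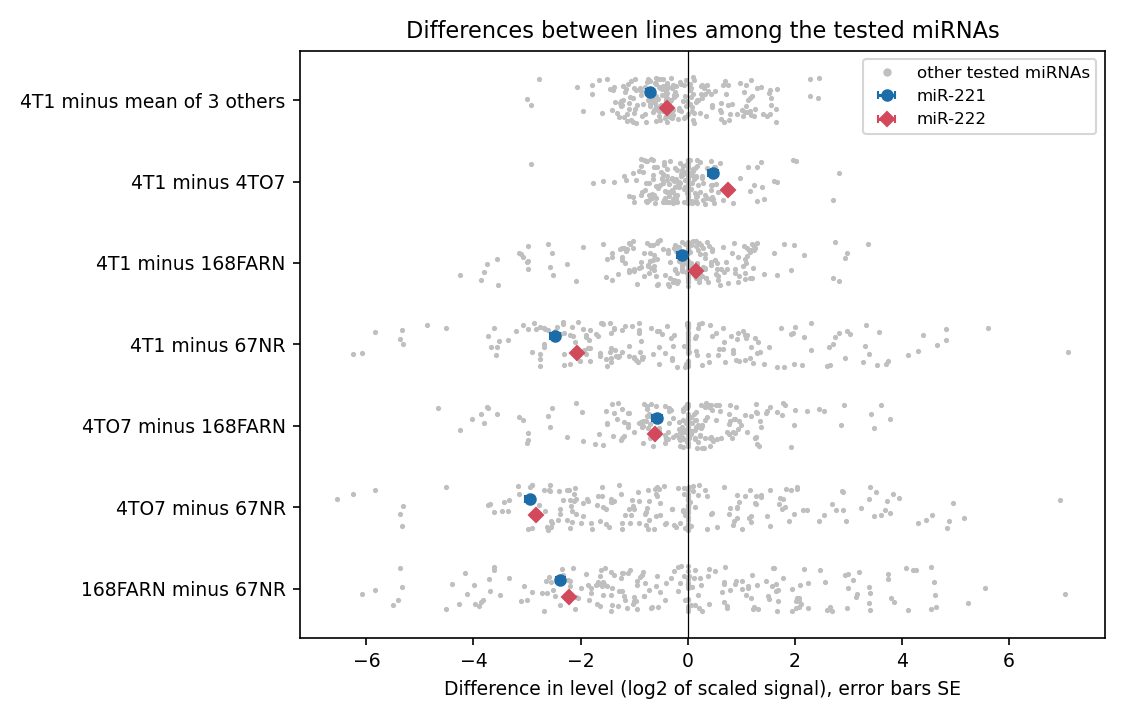
Differences in level between lines (log2 of scaled signal, horizontal axis) for miR-221 (blue circles) and miR-222 (red diamonds), with SE bars, among the other tested miRNAs (grey points, spread vertically for legibility). Both miRNAs sit left of 0 in each comparison with 67NR, at -2.07 to -2.95, and right of 0 in 4T1 minus 4TO7, at 0.47 and 0.76.

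Among the 3 non-metastatic lines the pair differed in every comparison. In 4TO7 minus 168FARN miR-221 was -0.58 ± 0.088 and miR-222 -0.61 ± 0.056 (log2, SE), 1.49-fold and 1.53-fold lower in 4TO7, with limma adjusted p of 0.000104 and 1.33e-06, where 74.6% of the tested miRNAs passed (35.3% higher and 39.3% lower in 4TO7). On slide 2 alone these were -0.54 and -0.67. In 4TO7 minus 67NR miR-221 was -2.95 ± 0.088 and miR-222 -2.82 ± 0.056, 7.73-fold and 7.08-fold lower in 4TO7, with limma adjusted p of 2.30e-11 and 5.70e-13, where 79.9% passed (31.7% higher and 48.2% lower in 4TO7). In size, 37 of the 223 other tested miRNAs exceeded miR-221 and 45 exceeded miR-222 there. In 168FARN minus 67NR miR-221 was -2.38 ± 0.088 and miR-222 -2.21 ± 0.056, 5.19-fold and 4.63-fold lower in 168FARN, with limma adjusted p of 1.64e-10 and 4.74e-12, where 87.9% passed (40.2% higher and 47.8% lower in 168FARN). Within slide 1, where the 1 array of 168FARN lay with the 3 of 67NR, the differences were -2.30 and -2.32. The arrays of the lines compared did not overlap in any of these comparisons for either miRNA, as was so for 73.2% of the tested miRNAs in 4TO7 minus 168FARN, 80.4% in 4TO7 minus 67NR and 86.6% in 168FARN minus 67NR. These 3 comparisons and those above share arrays of each line and are not independent of one another.

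Scaling moves the balance of calls in the whole table, and the differences of the pair are also given relative to the median of all tested miRNAs. Among the called miRNAs of 4T1 minus 4TO7, 41.2% were higher in 4T1 under the scaling used, 66.7% when the percentile was taken over all probes, 93.8% on unscaled values and 48.5% after quantile normalization. For 4T1 minus the mean these shares were 32.1%, 48.7%, 62.7% and 45.1% in the same order of settings, and for 4T1 minus 67NR they were 40.4%, 50.8%, 61.2% and 50.3%. Without scaling, 23.0% of calls were higher in 4TO7 than in 168FARN, against 47.3% with it, and 59.8% were higher in 168FARN than in 67NR, against 45.7%. The other scalings shifted the median of all tested miRNAs by between -0.50 and 0.62, both ends without scaling. Relative to the median of all tested miRNAs under each of the 4 settings, miR-221 was 0.47 to 0.85 higher in 4T1 than in 4TO7, and miR-222 0.76 to 1.14 higher. On the same basis 4T1 minus 67NR ran from -2.43 to -1.32 for miR-221 and from -2.02 to -0.90 for miR-222. Relative to that median, 4T1 minus the mean was -0.37 to -0.26 for miR-221, and -0.12 to 0.062 for miR-222, which changed sign. The median of 4T1 minus 4TO7 was 0 under the scaling used, with the percentile over all probes and after quantile normalization. Subtracting it took out none of the scaling shift: miR-221 stood at 0.47 and 0.75 under the first 2 of these. In 4T1 minus 67NR the median ran from -0.046 to 0.14 over the settings. These ranges are thus not free of the scaling.

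**Figure D3:**
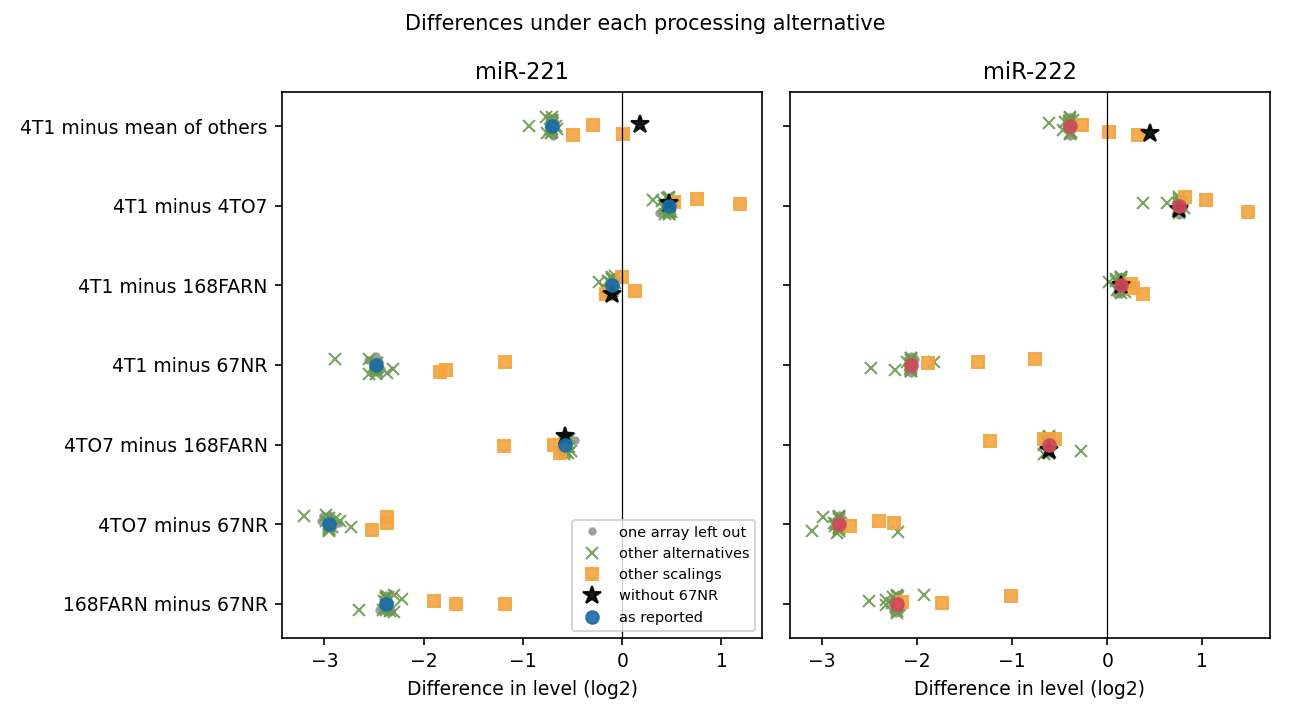
Differences in level (log2, horizontal axis) of miR-221 (left) and miR-222 (right) in the 7 comparisons, as reported (large circle) and under each alternative: other scalings (squares), without 67NR (stars), 1 array left out (grey points) and the other alternatives (crosses). The points of 4T1 minus 4TO7, 4TO7 minus 168FARN and the 3 comparisons of single lines with 67NR all stay on 1 side of 0, while those of 4T1 minus the mean cross it.

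The ratio of miR-222 to miR-221 was highest in 4T1 with the scaling used, but not above 67NR after quantile normalization. Dividing an array by 1 number leaves the ratio of its 2 signals as it is, whereas quantile normalization changes it. log2 of miR-222 over miR-221 was -1.91, -1.98 and -2.00 in 4T1 (mean -1.96 ± 0.051 SD, n = 3), -2.33, -2.31 and -2.12 in 4TO7 (mean -2.25 ± 0.12), -2.40, -2.13 and -2.11 in 168FARN (mean -2.21 ± 0.16), and -2.26, -2.51 and -2.36 in 67NR (mean -2.38 ± 0.13). The 3 arrays of 4T1 were the highest of the 12, and the other 3 lines overlapped. In 4T1 the ratio exceeded the mean of the 3 other lines by 0.32 ± 0.081 (SE), with an exact two-sided permutation p of 0.00455, which is the smallest that 3 arrays against 9 allow, and 0.0364 after Benjamini-Hochberg adjustment over 8 tests of the ratio. This test takes the 9 other arrays as alike, although they come from 3 lines. An exact permutation test of differences among the 4 lines gave F = 6.19 and p = 0.0174, or 0.0696 adjusted, and without the 67NR arrays p = 0.0643. Against single lines 4T1 exceeded 4TO7 by 0.29, 168FARN by 0.25 and 67NR by 0.41 (SE 0.099 each), each with an exact permutation p of 0.1, the smallest that 3 against 3 can give. After quantile normalization, chosen for the ratio after seeing the data, the mean was -1.77 ± 0.083 (SD) in 4T1, -2.07 ± 0.15 in 4TO7, -2.21 ± 0.13 in 168FARN and -1.73 ± 0.13 in 67NR, with 4T1 and 67NR overlapping. 4T1 minus 67NR was then -0.039, 4T1 exceeded the mean of the 3 other lines by 0.23 with an exact two-sided permutation p of 0.155, and the test of the 4 lines gave an exact permutation p of 0.00461. The sign for 4TO7 depended on the background correction, since with normexp the difference was -0.039. Leaving out the first or the second 4T1 array also took the test of the 4 lines past 0.05 (exact permutation p of 0.0698 and 0.0502). Because the probes differ, the size of the ratio says nothing on which miRNA is the more abundant, and only its change between lines is read.

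The 2 probes of each miRNA, which differ by 1 base in target length, gave nearly the same differences. In 4T1 minus 67NR the brighter and dimmer miR-221 probes gave -2.48 and -2.47, and the miR-222 probes -2.07 and -2.07. In 4T1 minus 4TO7 they gave 0.47 and 0.43 for miR-221 and 0.76 and 0.78 for miR-222. Across the 7 comparisons no probe differed in sign from its partner. With the dimmer probes in place of the brighter ones miR-222 was no longer called in 4T1 minus 168FARN (0.14, limma adjusted p of 0.175).

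**Figure D4:**
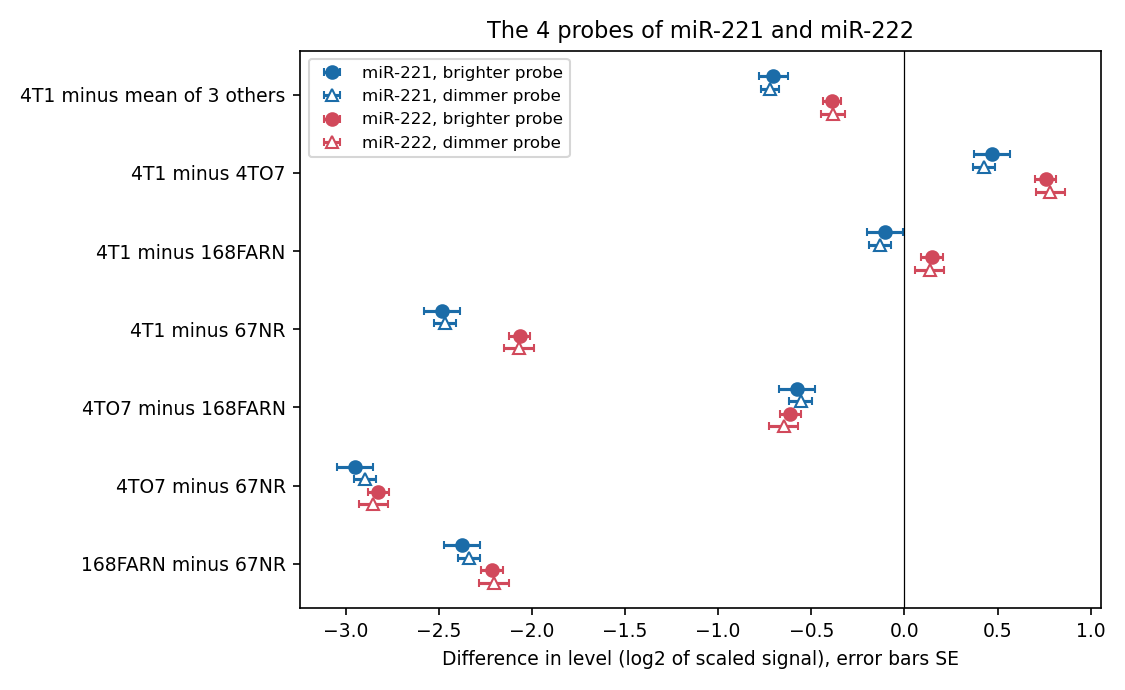
Differences in level (log2 of scaled signal, horizontal axis, SE bars) of the brighter probe (filled circles) and the dimmer probe (open triangles) of miR-221 (blue) and miR-222 (red) in the 7 comparisons. The error bars of the 2 probes of a miRNA overlap in each comparison, for example at -2.48 and -2.47 for miR-221 in 4T1 minus 67NR.

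On 3 arrays the spots of the brighter miR-221 probe disagreed among themselves. Their coefficient of variation (SD over mean of the spots of 1 array) was 21.5 to 24.9% on the third 4TO7, the second 168FARN and the first 67NR array, against 1.07 to 3.27% on the other 9. On each of the 3 arrays the same 3 of the 10 spots were below 80% of the median spot, down to 225 units on the 4TO7 array against a median of 462. These 3 arrays hold the first place of a row on their slide, and over the 170 bright probes their median coefficient of variation was 6.30 to 8.37%, against 2.89 to 4.91% on the other arrays. Each of the 3 arrays gave the lowest scaled miR-221 level of its line. With the median of the spots in place of the mean, chosen after seeing the data, the level of miR-221 was -0.039 ± 0.059 (SD) in 4T1, -0.47 ± 0.078 in 4TO7, 0.10 ± 0.048 in 168FARN and 2.51 ± 0.021 in 67NR. The spread over the 3 arrays was then narrower in 4TO7, 168FARN and 67NR than the 0.17, 0.065 and 0.14 given above. The miR-221 arrays of 4T1, up to 0.025, and of 168FARN, from 0.045, then no longer overlapped. With the mean of the spots 76.8% of the tested miRNAs had no overlap between these lines. With that choice 4T1 minus 168FARN for miR-221 passed the test at -0.14 (limma adjusted p of 0.0173), and with that place on the slide as a covariate, also chosen after seeing the data, it passed at -0.17 (limma adjusted p of 0.0132).

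The miRNAs whose levels over the 12 arrays were most like those of the pair were sought among the 95 other miRNAs read on all 12 arrays, by Pearson correlation of the scaled log2 levels. For miR-221 they were miR-106b (r = 0.993), miR-93 (0.991), miR-222 (0.990), miR-16 (0.988) and miR-374 (0.987). For miR-222 they were miR-221 (0.990), miR-93 (0.987), miR-106b (0.982), miR-16 (0.979) and miR-186 (0.978). miR-106b and miR-93 are made from 1 transcript on chromosome 5 and belong to the miR-17 seed family, and miR-16 is known as a repressor of cyclins and of Bcl2. The 4 lines and 12 arrays are the same in each of these values, and high r was common: the median r over the 95 candidates was 0.691 for miR-221 and 0.663 for miR-222. Over the 9 arrays without 67NR these medians were -0.077 and -0.18, while miR-221 and miR-222 correlated with each other at 0.881, the 3rd highest of 95 for miR-221 and the 7th highest for miR-222. Over those 9 arrays r with miR-221 was 0.832 for miR-106b, 0.772 for miR-93, 0.842 for miR-16 and 0.700 for miR-374, and r with miR-222 was 0.933 for miR-93, 0.738 for miR-106b, 0.722 for miR-16 and 0.692 for miR-186. These are descriptions of 12 and 9 arrays of 4 and 3 lines.

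**Figure D5:**
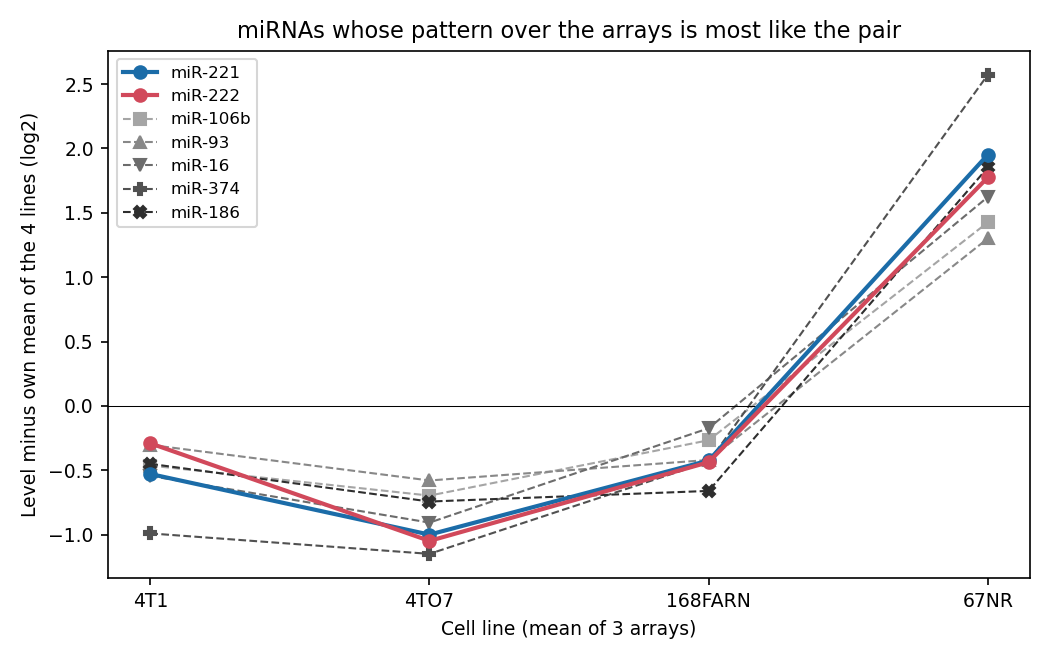
Mean level over 3 arrays in each line, minus the miRNA's own mean over the 4 lines (log2, vertical axis), for miR-221 (blue), miR-222 (red) and the miRNAs most like them over the 12 arrays (grey, dashed). All 7 are highest in 67NR and lowest in 4TO7.

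Other miRNAs reported to act on the same targets were counted by list, as miRNAs known from human and mouse work. Of 11 reported repressors of the cell-cycle brakes p21, p27 and p57, 9 were tested. In 4T1 minus 67NR 1 was higher and 8 were lower, with a median of -2.69 against -0.046 over all tested miRNAs (32.1% of those higher, 47.3% lower), and no other scaling turned a call, with 6 to 8 of them lower. In 4T1 minus 4TO7, 2 were higher, 2 lower and 5 were not called, where 25% of all tested miRNAs were higher and 35.7% lower. This split rests on the scaling, since 6 were higher and none lower (0) with the percentile over all probes, and 8 were higher and none lower (0) without scaling. Over all 224 tested miRNAs, 80 were higher and 40 lower with that percentile, and 105 and 7 without scaling. In 4T1 minus 168FARN 6 were higher, 1 lower and 2 were not called (34.4% and 39.7% of all tested miRNAs), and under the other scalings 4 to 7 were higher and 0 to 2 lower. Under those scalings 69 to 94 of all tested miRNAs were higher and 73 to 79 lower. Against the mean 1 was higher and 8 were lower (28.1% and 59.4% of all), but without the 67NR arrays 6 of 8 were higher. The shares over all tested miRNAs without those arrays are not given here, so this turn is not read as a trait of the list. Without scaling 2 were higher and 1 lower, where 111 of all tested miRNAs were higher and 66 lower. miR-24, from the clusters that also hold miR-23 and miR-27, was the member that ran against the others in 4T1 minus 67NR: its level was 0.94 in 4T1, 0.86 in 4TO7, 0.74 in 168FARN and -1.03 in 67NR, so that it was 1.98 ± 0.034 higher in 4T1 (SE, limma adjusted p of 2.08e-13). miR-20a of the miR-17-92 cluster and its X-linked relative miR-20b had differences of -2.86 and -2.76 in 4T1 minus 67NR, and of 1.04 and 1.09 in 4T1 minus 168FARN, each called by limma. The sequences of these relatives are nearly alike, so an array may not separate them. miR-196a, encoded in the Hox clusters, was well above background in 67NR alone, at a level of -0.20. It was tested through that line alone, so its lower calls in 4T1 against 67NR and the mean were set by the filter. Most other members lower in 4T1 than in 67NR belong to the miR-17-92 cluster or its relatives, so the 8 are not separate evidence.

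Of 7 reported repressors of the oestrogen receptor alpha 6 were tested. In 4T1 minus 67NR 1 was higher, 4 were lower and 1 was not called (median -1.57), whereas in 4T1 minus 168FARN 4 were higher and 2 lower (median 1.06), with the same shares of all tested miRNAs as above. The split against 168FARN was the same under each other scaling, and that against 67NR became 2 higher and 3 lower without scaling and with quantile normalization. Against 67NR 104 of all tested miRNAs were higher and 66 lower without scaling, and 91 and 90 with quantile normalization. In 4T1 minus 4TO7 1 was higher, 4 lower and 1 was not called under the scaling used (25% and 35.7% of all tested miRNAs). With the percentile over all probes 1 was higher and none lower (0), where 80 of all tested miRNAs were higher and 40 lower. Without scaling 4 were higher and none lower (0), where 105 of all were higher and 7 lower. Against the mean, 1 was higher, 4 were lower and 1 was not called, near the 28.1% and 59.4% of all tested miRNAs. Without the 67NR arrays 4 were higher and 2 lower, a count given without the shares over all tested miRNAs and not read as a trait of the list. Without scaling 3 were higher and 1 lower, where 111 of all were higher and 66 lower. miR-19a, miR-19b and miR-18a, all of the miR-17-92 cluster, had differences of -3.36, -2.62 and -2.75 in 4T1 minus 67NR and of 1.05, 1.06 and 1.42 in 4T1 minus 168FARN, each called by limma. miR-193b was not well above background in 168FARN and stood at -2.60 in 4T1, -2.15 in 4TO7 and -2.08 in 67NR. A further member was read in 168FARN alone, so its lower calls in 4T1 against 168FARN and the mean were set by the filter.

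Of 9 other miRNAs reported as raised in basal-like breast cancer 7 were tested. In 4T1 minus 67NR 2 were higher, 4 lower and 1 was not called (median -0.91), near the 32.1% and 47.3% of all tested miRNAs. In 4T1 minus 168FARN 5 were higher, 1 lower and 1 was not called (median 0.74), where 34.4% and 39.7% of all were higher and lower, and the split was the same under each other scaling. In 4T1 minus 4TO7 3 were higher, 2 lower and 2 were not called (25% and 35.7% of all). Without scaling 6 were higher and 1 lower there, where 105 of all tested miRNAs were higher and 7 lower. Against the mean 1 was higher and 6 were lower, where 28.1% and 59.4% of all were higher and lower (median -0.48 against -0.34 over all). Without the 67NR arrays 4 were higher and 2 lower, again without the shares over all tested miRNAs and not read as a trait of the list. Without scaling 2 were higher and 3 lower against 67NR, and 3 higher and 2 lower against the mean. Of all tested miRNAs, 104 were then higher and 66 lower against 67NR, and 111 higher and 66 lower against the mean. miR-155, known for its role in immune cells and breast cancer, stood at -2.19 in 4T1, -4.89 in 4TO7 and -2.92 in 168FARN and was not well above background in 67NR. It was 2.70 ± 0.057 higher in 4T1 than in 4TO7 (SE, limma adjusted p of 1.54e-11) and 0.74 ± 0.057 higher than in 168FARN (limma adjusted p of 2.84e-07). miR-146a, induced by NF-kB, was not well above background in 4TO7 and 67NR and stood at -5.39 in 4T1 and -1.84 in 168FARN. Its lower call against the mean thus rested on 168FARN. miR-146b was read on all 3 arrays in 4TO7 alone, at -3.80. It was tested through that line alone, so its lower calls in 4T1 against 4TO7 and the mean lean on the filter. The 3 lists share members (miR-17, miR-18a and miR-20a among those tested), so their counts are not separate evidence.

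The other miRNAs of the X chromosome were counted beside the pair. Of 79 on that chromosome by the array's positions 37 were tested, and the nearest of them, miR-532-5p, lies 11898 kb away. A large part of the 37 lie in a single stretch 45307 to 45356 kb from miR-221, so the counts do not rest on 37 separate places. In 168FARN minus 67NR, 23 of the 37 were higher and 12 lower (median 1.18), against 40.2% and 47.8% of all tested miRNAs. Their median was 0 in 4T1 minus 67NR and in 4TO7 minus 67NR, the difference of a miRNA at the floor in both lines. A miRNA tested through 168FARN alone could only be called as higher in that line, so calls of such members were set by the filter. Between 24 and 25 were higher under the other scalings, where 94 to 107 of all 224 tested miRNAs were higher. In 4T1 minus 67NR 5 were higher, 13 lower and 19 were not called (32.1% and 47.3% of all tested miRNAs were higher and lower). Without scaling 8 were higher and 7 lower there, where 104 of all tested miRNAs were higher and 66 lower. In 4T1 minus 4TO7, where the pair was higher, 5 were higher, 7 lower and 25 were not called (25% and 35.7% of all). Their median difference was 0, as for a miRNA at the floor in both lines, which could not be called. The 25 are thus not all read as unchanged. There 9 were higher and 3 lower with the percentile over all probes, and 11 higher and none lower (0) without scaling. Of all tested miRNAs 80 were higher and 40 lower with that percentile, and 105 and 7 without scaling. In 4T1 minus 168FARN 10 were higher and 21 lower (median -0.68, where 34.4% and 39.7% of all were higher and lower), and in 4TO7 minus 168FARN 7 were higher and 24 lower (35.3% and 39.3% of all). Lower calls against 168FARN carry the same limit from the filter. Whether the pair differs from the other X-linked miRNAs was not tested, and these counts stand as a description.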

How the data were processed

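The deposited intensity values are background-subtracted processed signals, made by the authors with version 10.2.1.3 of the Feature Extraction software. Per the file headers this run used a spatial fit of the background and no multiplicative detrending. The deposited value table equals them on all 12 arrays (largest difference 0). Total RNA was taken with Trizol and 100 ng labelled per array, per the labels' protocols. Control spots and 284 to 508 marked spots per array were left out, and the spots of a probe were averaged. A probe counted as well above background where over 50% of its spots were. After division by the 75th percentile over 170 probes, values under 0.0209 (log2 -5.58) were raised to that floor, which is the median of the 12 arrays' lowest well-measured values. The brightest probe stood for each miRNA. The 224 of 577 miRNAs read on all 3 arrays of at least 1 line were fitted with limma 3.58.1 (R 4.3.3, with version 1.17.8 of data.table and 1.5.0 of statmod) over the 12 arrays (8 residual degrees of freedom). A call is a two-sided Benjamini-Hochberg adjusted p below 0.05 in its comparison. The ratio of the pair was tested by exact permutation. The fit and the permutation test were run on simulated data with normal spread, and the outcome is not given here. The smallest spreads of the fit were raised there and no floor was set, so miRNAs at the floor were not covered. The number of arrays limits the precision. Named miRNAs were the pair, the 5 most like each member, those sharing the seed, and up to 4 per list in order of adjusted p in 4T1 minus the mean, with the X-linked miRNA nearest by position added. The members and lists were chosen with earlier results of these data known. 1 further list is not reported here. Alternatives were other scalings, normexp (offset of 50) as background correction, total signals per gene, other probes, filters and floors, marked spots kept, slide and replicate terms, single slides, lines or arrays left out, and a trended robust variance.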

Additional observations from a re-analysis of the deposited data

How the results depend on the processing

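In all alternatives run, both miRNAs kept their direction and call in 4T1 minus 4TO7, 4TO7 minus 168FARN and the 3 comparisons of single lines with 67NR. Changes concerned 2 comparisons, the ratio and the counts over all miRNAs. 4T1 minus the mean turned positive without the 67NR arrays (0.18 for miR-221, 0.45 for miR-222) and without scaling (0.0040 and 0.32), and for miR-222 when the percentile was taken over all probes (0.021). In 4T1 minus 168FARN miR-221 turned to 0.13 with that percentile and was called with total gene signals (-0.24), the median of the spots (-0.14) and the first place of a row as a covariate (-0.17), the last pair chosen after seeing the data. There miR-222 lost its call at 0.25 without scaling, 0.11 with normexp, 0.018 with total gene signals, 0.14 with the mean of all probes, 0.14 with the dimmer probes, 0.15 with no filter, 0.090 with slide as a term, 0.090 on slide 2 alone and 0.13 with the first-place covariate, and ran from 0.090 to 0.19 with 1 array left out. For miR-222 over miR-221, 4T1 minus 4TO7 was -0.039 with normexp, and with quantile normalization, chosen after seeing the data, 4T1 minus 67NR was -0.039 and 4T1 minus 168FARN 0.44. F was 5.24 without 67NR and 3.77 to 9.98 with 1 array left out. Keeping only miRNAs read on all 12 arrays left each member of the pair with 95 others tested. Of this set 82 passed in 4T1 minus the mean. In 4T1 minus 4TO7, minus 168FARN and minus 67NR, those passing were 70, 78 and 87. They were 75 in 4TO7 minus 168FARN, 86 in 4TO7 minus 67NR and 91 in 168FARN minus 67NR. Fewer were tested, and in each comparison but 4T1 minus the mean a larger share passed than over the 224. With no filter 513, 514 and 527 of the 577 miRNAs passed in 4T1, 4TO7 and 168FARN minus 67NR. That is more than the 224 read on all 3 arrays of at least 1 line. Many of these calls thus fell on miRNAs that no line read throughout, and they are not read as differences. Other causes were not tested. The repeat numbers did not pair the arrays: deviations of same-numbered arrays correlated at -0.80 to 0.56, and 1 of 12 arrays correlated best with its own number. The fit with the replicate block changed no call of the pair (0.47 for miR-221 and 0.76 for miR-222 in 4T1 minus 4TO7), and the ratio's F was 5.47.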
